A study of Mus musculus with 30 samples.

Results

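The Sonic hedgehog (SHH) pathway genes examined here are *Shh*, *Ptch1*, *Hhip*, *Boc*, *Cdon*, *Gas1*, *Gli1*, *Gli2* and *Gli3*. They were chosen by name, and all 9 were found among the 50833 genes of the count table. RNA was sequenced from mouse forelimb buds after a single injection of the pregnant female at embryonic stage E10.5. All embryos were wild-type Swiss Albino. Controls were injected with DMSO, the solvent, and treated embryos with Wnt-C59 (C59), a small molecule inhibitor of porcupine, the enzyme that WNT ligands need for their secretion. The 10 groups are these treatments at 5 times after the injection (1, 6, 12, 18 or 24 h), and each group had 3 libraries. C59 acts on the whole embryo and blocks canonical and non-canonical WNT signaling alike.

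SHH is a secreted protein made by the polarizing region, a small group of mesenchymal cells at the posterior margin of the limb bud, and it patterns the digits from posterior to anterior and sustains outgrowth. It binds the receptor PTCH1, helped by the co-receptors BOC, CDON and GAS1. Binding relieves the block that PTCH1 places on Smoothened, so that GLI2 and GLI3 act less as repressors and more as activators. *Gli1*, *Ptch1* and *Hhip* are transcribed in response to the signal and are widely used as its readout. PTCH1 and HHIP in turn bind and restrain the ligand, which makes them negative feedback components.

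The promoters of *Ptch1* and *Hhip* are shown because these genes are response genes whose transcripts changed in opposite directions at 6 h and 18 h. Each line holds the 250 bases before the transcription start in the RefSeq table (build GRCm38.p6), 5′ to 3′ on the strand of the gene, and capitals mark CCACCC or its reverse complement GGGTGG, the core of the GLI motif.
*Ptch1*, chr13:63565736-63565985, minus strand: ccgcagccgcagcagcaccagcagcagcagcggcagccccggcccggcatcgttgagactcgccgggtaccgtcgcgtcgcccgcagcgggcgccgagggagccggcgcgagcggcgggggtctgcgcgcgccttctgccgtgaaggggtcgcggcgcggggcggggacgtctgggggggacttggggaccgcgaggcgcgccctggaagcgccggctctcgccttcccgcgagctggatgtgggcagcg
*Hhip*, chr8:80058009-80058258, minus strand: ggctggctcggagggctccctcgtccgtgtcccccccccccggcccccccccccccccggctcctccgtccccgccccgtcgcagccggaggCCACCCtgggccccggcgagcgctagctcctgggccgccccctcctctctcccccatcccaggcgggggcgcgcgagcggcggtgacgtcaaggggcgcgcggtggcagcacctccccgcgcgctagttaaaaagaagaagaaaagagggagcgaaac
The *Ptch1* stretch lies in introns of longer *Ptch1* transcripts in the GENCODE annotation. The table held promoters of 6 of the 9 genes, and those of *Shh*, *Gli1* and *Boc* were not analysed here. Of the 6, the stretches of *Cdon* (chr9:35451826-35452075) and *Gli3* (chr13:15463473-15463722) also lay inside the annotated genes. These genes start at 35421128 and 15463235 on the plus strand. The 9-letter GLI motif GACCACCCA, searched on both strands, was in none of the 6, and 0.225% of 32817 promoters of the same length held it. The core CCACCC, which is part of that motif, occurred in 28.1% of all promoters, once in *Hhip*, once in *Gli3* and at 2 positions in *Gli2*. The TCF/LEF motif CTTTGAT was in none of the 6 and in 3.21% of all promoters.

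The libraries held between 18188636 and 38974885 counts. *Axin2*, a feedback target of WNT signaling, served as the check of the treatment and fell from 110 CPM ± 6.82 (SD, n = 3) with DMSO to 28.2 CPM ± 1.51 with C59 at 6 h, where CPM is the count scaled to the normalized library size. The forelimb gene *Tbx5* was present in every library (188 to 330 CPM), whereas the hindlimb gene *Pitx1* stayed between 0.105 and 4.63 CPM. Genes of the notochord, floor plate and ventral neural tube, which are other sources of SHH or lie beside them, summed to at most 1.06 CPM over 6 genes, with *Nkx2-1* at 0 counts in every library. Within the C59 group at 18 h, replicate 3 stood apart from replicates 1 and 2 (chi-square per degree of freedom 43.2 and 36.4, against 4.37 between the other two), and within the DMSO group at 18 h, replicate 1 stood apart (39.8 and 32.0, against 4.20). The same held for DMSO replicate 1 at 6 h (46.2 and 39.02, against 6.18), C59 replicate 2 at 24 h (46.6 and 34.8, against 12.8) and DMSO replicate 1 at 1 h (22.9 and 25.2, against 5.75). In the other 5 groups all pairs lay between 3.49 and 7.81.

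Levels can be compared between genes only per transcript length, as FPKM (fragments scaled to transcript length and depth). In DMSO limb buds at 1 h, the membrane-anchored co-receptor *Gas1* had the highest level, 110 FPKM ± 2.56 (SD, n = 3). *Gli3*, the main repressor of the pathway in the limb, followed at 28.5 ± 2.88, then *Cdon* at 19.8 ± 1.36 and *Gli2* at 14.6 ± 0.658. *Gli1* (11.8 ± 0.854), *Ptch1* (11.7 ± 0.658) and *Boc* (11.1 ± 1.35) overlapped in their libraries and could not be ranked. *Shh* stood at 5.09 ± 0.423 and *Hhip* at 0.436 ± 0.0428, the lowest of the 9.

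**Figure D1:**
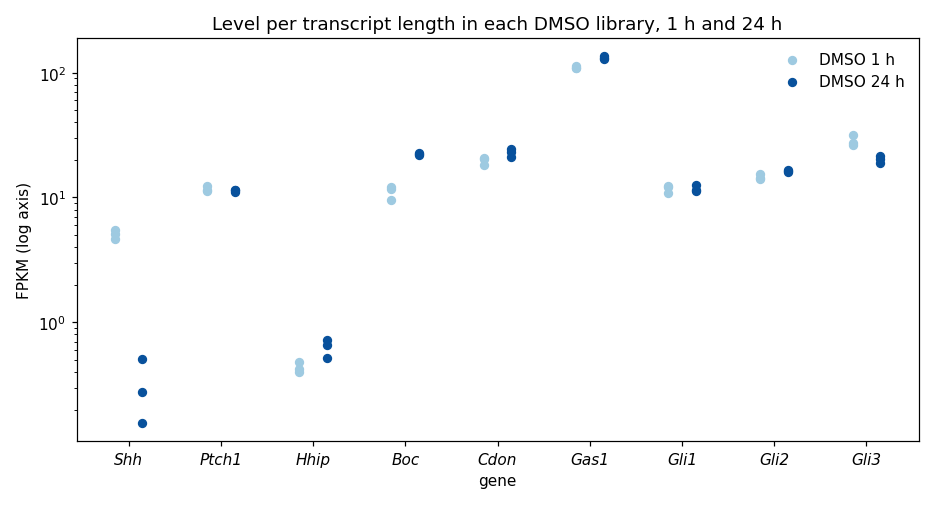
FPKM (log axis) of the 9 genes in each of the 3 DMSO libraries at 1 h and at 24 h. *Gas1* lies highest at both times, and *Shh* drops from 5.09 to 0.314 FPKM on average and falls below *Hhip*.

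During normal development between 1 h and 24 h, 5 of the 9 genes passed the edgeR quasi-likelihood test (adjusted p below 0.05), 3 of them higher and 2 lower at 24 h. Over all genes tested, 59.3% passed (30.2% higher, 29.2% lower), and 64.8% had groups that did not overlap, as did 7 of the 9. *Shh* fell by 3.93 ± 0.22 (SE) on the log2 scale (adjusted p 1.98e-09) and *Gli3* by 0.60 ± 0.06 (4.42e-07). *Boc*, whose product binds SHH at the cell surface, rose by 0.90 ± 0.07 (3.74e-08), *Hhip* by 0.45 ± 0.15 (0.0156) and *Gas1* by 0.18 ± 0.05 (0.00512). The rise of *Hhip* did not pass without DMSO 1 h replicate 2 (adjusted p 0.0563), without DMSO 24 h replicate 3 (0.0788) or with limma on log2(FPKM + 0.1) (0.0555). *Gli2* (0.11, adjusted p 0.0518), *Cdon* (0.11), *Gli1* (0.06) and *Ptch1* (-0.10) did not pass. None of the response genes *Gli1*, *Ptch1* and *Hhip* passed as lower, although *Ptch1* did when DMSO 1 h replicate 1 was left out (-0.14, adjusted p 0.0283).

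*Shh*, the ligand, was the gene that changed most after C59. In the DMSO libraries it stood at 14.0, 12.6 and 15.2 CPM at 1 h, 14.5, 14.4 and 15.5 at 6 h, 11.6, 10.7 and 14.2 at 12 h, 7.30, 5.24 and 6.32 at 18 h and 0.772, 1.41 and 0.515 at 24 h. In the C59 libraries it stood at 10.7, 10.8 and 12.1 CPM at 1 h, 5.18, 5.74 and 5.14 at 6 h, 0.218, 0.042 and 0.276 at 12 h, 0.514, 0.799 and 0.527 at 18 h and 0.750, 1.44 and 0.339 at 24 h. Every C59 library lay below every DMSO library of its time at 1, 6, 12 and 18 h, and at 24 h the groups overlapped. Of all genes tested, 22.0% had groups that did not overlap at 1 h and 36.8% at 6 h. This share was 57.1% at 12 h, 34.2% at 18 h and 27.7% at 24 h. In bulk limb buds, fewer cells that transcribe a gene and less RNA per cell cannot be told apart.

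The difference at 1 h did not pass after adjustment (log2 fold change -0.32 ± 0.11, adjusted p 0.130). *Shh* fell by 1.47 ± 0.11 on the log2 scale at 6 h (adjusted p 1.33e-06) and its log2 fold change was -6.09 ± 0.32 at 12 h (5.54e-07). The value at 12 h rests on few reads: the 3 C59 libraries held 4, 1 and 6 counts, 11 in all, and their pooled level of 0.172 CPM has an exact Poisson interval (95%, counting error only) of 0.0859 to 0.308 CPM. At 18 h *Shh* was lower by 3.32 ± 0.25 (adjusted p 0.000623). The size of these falls depended on the scale: with limma on log2(FPKM + 1) the difference was -2.32 at 12 h and -1.44 at 18 h, and both passed. In the C59 groups the pooled level was 0.610 CPM at 18 h (38 counts, interval 0.432 to 0.838) and 0.880 CPM at 24 h (62 counts, 0.675 to 1.13), next to 0.911 CPM with DMSO at 24 h (64 counts, 0.701 to 1.16). The difference at 24 h was -0.06 ± 0.48 (adjusted p 0.958), and this wide SE does not show that the groups were alike.

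Ordered by mean level over the 10 groups, *Shh* was highest with DMSO at 6 h (14.8 CPM), then with DMSO at 1 h (13.9) and at 12 h (12.2) and with C59 at 1 h (11.2), and each of these overlapped its neighbour. DMSO at 18 h (6.29) and C59 at 6 h (5.35) overlapped each other and were separate from the groups above and below. DMSO at 24 h (0.898), C59 at 24 h (0.841) and C59 at 18 h (0.614) overlapped in the same way, and C59 at 12 h (0.179) stood alone at the bottom. From 12 to 24 h the mean thus went from 12.2 to 0.898 CPM with DMSO and from 0.179 to 0.841 CPM with C59.

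**Figure D2:**
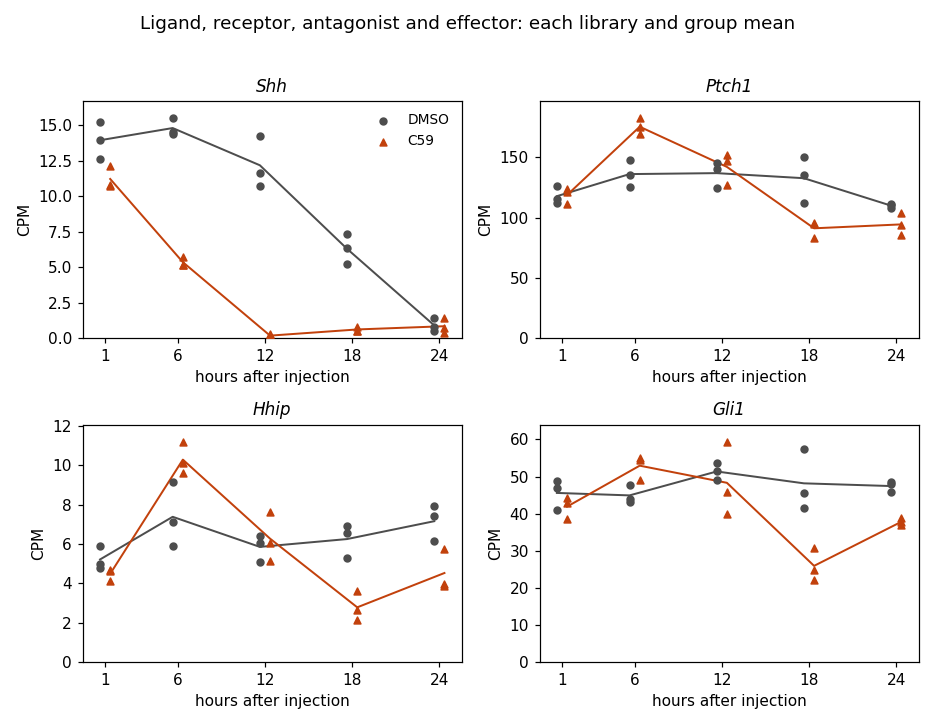
CPM of *Shh*, *Ptch1*, *Hhip* and *Gli1* by hours after injection; points are libraries (3 per group) and lines join group means of DMSO and C59. *Shh* with C59 is near 0 at 12 h, whereas *Ptch1*, *Hhip* and *Gli1* lie above DMSO at 6 h and below it at 18 h.

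*Ptch1*, the SHH receptor and a response gene, was higher with C59 at 6 h, when *Shh* was already lower. Its levels were 126, 148 and 135 CPM with DMSO and 182, 169 and 175 CPM with C59, without overlap. The rise of 0.36 ± 0.06 on the log2 scale passed (adjusted p 0.000551). At 12 h the groups overlapped (146, 125 and 140 CPM with DMSO, 127, 147 and 152 CPM with C59), with a log2 fold change of 0.05 ± 0.08 (adjusted p 0.581). At 18 h the levels were 112, 136 and 151 CPM with DMSO and 95.3, 95.1 and 83.2 CPM with C59, and *Ptch1* was lower by 0.52 ± 0.12 (adjusted p 0.0343). This call was lost without DMSO replicate 2 (adjusted p 0.117), DMSO replicate 3 (0.170), C59 replicate 1 (0.0620) or C59 replicate 2 (0.0952), and with a replicate block (0.0870). At 24 h all C59 libraries lay below the DMSO libraries (85.8, 93.7 and 104 against 111, 108 and 111 CPM), but the difference of -0.21 ± 0.07 did not pass (adjusted p 0.0786).

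*Hhip*, which encodes a decoy that binds hedgehog ligands, moved in the same order. With DMSO it stood at 7.10, 5.89 and 9.15 CPM at 6 h and with C59 at 9.58, 10.1 and 11.2 CPM, again without overlap. Its rise of 0.48 ± 0.15 passed (adjusted p 0.0357), but it did not pass without DMSO replicate 1, DMSO replicate 2 or any 1 of the 3 C59 replicates (adjusted p of *Hhip* from 0.0621 to 0.130). Nor did it pass with a spread estimate shared over all 30 libraries (0.0716) or with limma on log2(FPKM + 1) (0.0897). At 12 h *Hhip* overlapped (5.09 to 6.39 against 5.12 to 7.63 CPM; 0.10 ± 0.17, adjusted p 0.650). At 18 h it stood at 5.30, 6.90 and 6.54 CPM with DMSO and at 2.62, 3.60 and 2.11 CPM with C59, a fall by 1.16 ± 0.22 (adjusted p 0.0171). That fall did not pass without DMSO replicate 2 (adjusted p 0.0714) or DMSO replicate 3 (0.0832), and with limma on log2(FPKM + 1) its size was -0.31, and it passed. At 24 h *Hhip* was still lower, by 0.67 ± 0.18 (adjusted p 0.0438), at 3.96, 3.84 and 5.76 against 7.41, 6.13 and 7.93 CPM, and this did not pass without any 1 of the 3 DMSO replicates, C59 replicate 1 or C59 replicate 2 (adjusted p from 0.0541 to 0.166). The fall at 24 h was also lost with all counted genes (0.0565) and with limma on log2(FPKM + 1) (0.118).

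*Gli1*, a transcriptional activator whose own transcription follows pathway activity, moved likewise. At 6 h it stood at 43.9, 47.6 and 43.2 CPM with DMSO and at 55.1, 54.6 and 49.2 CPM with C59, a rise of 0.23 ± 0.06 (adjusted p 0.0204). At 12 h the C59 libraries spread from 40.0 to 59.3 CPM around the DMSO libraries (49.2 to 53.6), with a log2 fold change of -0.09 ± 0.12 (adjusted p 0.552). The highest of them was C59 replicate 3, and without it *Gli1* was lower by 0.25 on the log2 scale (adjusted p 0.0231). At 18 h *Gli1* stood at 57.4, 41.5 and 45.6 CPM with DMSO and at 22.0, 24.9 and 30.8 CPM with C59, a fall by 0.87 ± 0.16 (adjusted p 0.0155). At 24 h it was lower by 0.32 ± 0.07 (adjusted p 0.0178), at 38.8, 37.7 and 36.8 against 48.6, 45.7 and 48.0 CPM. With the authors' FPKM and limma the falls at 18 h (-0.52, adjusted p 0.152) and at 24 h (-0.11, adjusted p 0.389) kept their direction but did not pass. The fall at 18 h also did not pass without DMSO replicate 1 (0.0641), DMSO replicate 3 (0.0676) or C59 replicate 2 (0.0626), nor did the fall at 24 h without DMSO replicate 1 (0.102), DMSO replicate 3 (0.0852) or C59 replicate 2 (0.05003). The rise of *Gli1* at 6 h did not pass without DMSO replicate 1 (0.0549) or DMSO replicate 3 (0.0816). It was also lost without C59 replicate 1 (0.0925) or C59 replicate 2 (0.0747) and with all 30 libraries (0.209). *Gli1* overlaps *Arhgap9* on the opposite strand (48 to 136 counts per library), and how strand was treated in counting was not given in the sources used here.

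Among the co-receptors, *Boc* was higher with C59 at 6 h (0.21 ± 0.06, adjusted p 0.0215), at 12 h (0.47 ± 0.08, adjusted p 0.000538) and at 24 h (0.20 ± 0.05, adjusted p 0.0488). The call at 6 h was lost without DMSO replicate 3, C59 replicate 1 or C59 replicate 2 (adjusted p from 0.0664 to 0.116), and the call at 24 h without any 1 library other than C59 replicate 1 (0.0569 to 0.214). Both calls were also lost with all 30 libraries (0.0674 and 0.148) and with limma on log2(FPKM + 1) (0.0618 and 0.0686). A replicate block (0.0764), all counted genes (0.0587), DESeq2 size factors (0.0520) and other filters lost the call at 24 h as well. At 12 h its levels were 107, 98.4 and 101 CPM with DMSO and 151, 148 and 123 CPM with C59. At 18 h it also lay higher without overlap (126 to 132 against 150 to 171 CPM), but 0.31 ± 0.09 did not pass (adjusted p 0.0793), although it did with DESeq2 (0.0396) and without C59 replicate 3 (0.0264). *Boc* also rose with time in controls, as given above, so that C59 and development moved it in the same direction.

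*Gas1* moved the other way. It stood at 298, 316 and 321 CPM with DMSO and at 227, 242 and 263 CPM with C59 at 6 h, a fall by 0.36 ± 0.05 (adjusted p 0.00049). At 12 h it was lower by 0.26 ± 0.05 (adjusted p 0.00103), at 251, 266 and 242 against 309, 312 and 290 CPM. At 18 h (0.05 ± 0.08) and 24 h (-0.02 ± 0.06) its groups overlapped. *Cdon*, the paralog of *Boc*, overlapped between treatments at 1, 6, 12 and 24 h and was higher with C59 at 18 h (0.41 ± 0.10, adjusted p 0.0466), at 254, 257 and 263 CPM against 170, 217 and 202 CPM with DMSO. That call was lost with a replicate block (adjusted p 0.0934), with all counted genes (0.0517) and without any 1 library other than C59 replicate 3 (0.0797 to 0.163). At 12 h, where the test gave no call for *Cdon*, it passed as higher with DESeq2 (0.0286), upper-quartile factors (0.0228), both limma fits on FPKM, a replicate block (0.0045) and without C59 replicate 3 (0.0078).

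*Gli2*, the main activator among the GLI factors, had overlapping groups at 6 h (-0.10 ± 0.05, adjusted p 0.180) and was higher with C59 at 12 h (0.22 ± 0.04, adjusted p 0.00148) and at 18 h (0.54 ± 0.10, adjusted p 0.0182). Its levels at 18 h were 114, 136 and 126 CPM with DMSO and 175, 168 and 195 CPM with C59. The call at 18 h was lost without DMSO replicate 1 (adjusted p 0.0778), without DMSO replicate 3 (0.0972) and with a replicate block (0.0532). At 24 h the groups overlapped again (-0.05 ± 0.07). *Gli3* did not pass at any of the 5 times, with log2 fold changes from -0.09 at 12 h to 0.31 at 18 h (adjusted p 0.182), although its 3 C59 libraries at 18 h (257, 236 and 226 CPM) all lay above the DMSO libraries (158, 219 and 210 CPM). It passed in some alternatives, with all 30 libraries at 18 h (0.29, adjusted p 0.0283), without DMSO replicate 3 at 1 h (0.22, 0.0121) and without C59 replicate 2 at 12 h (-0.16, 0.0434).

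**Figure D3:**
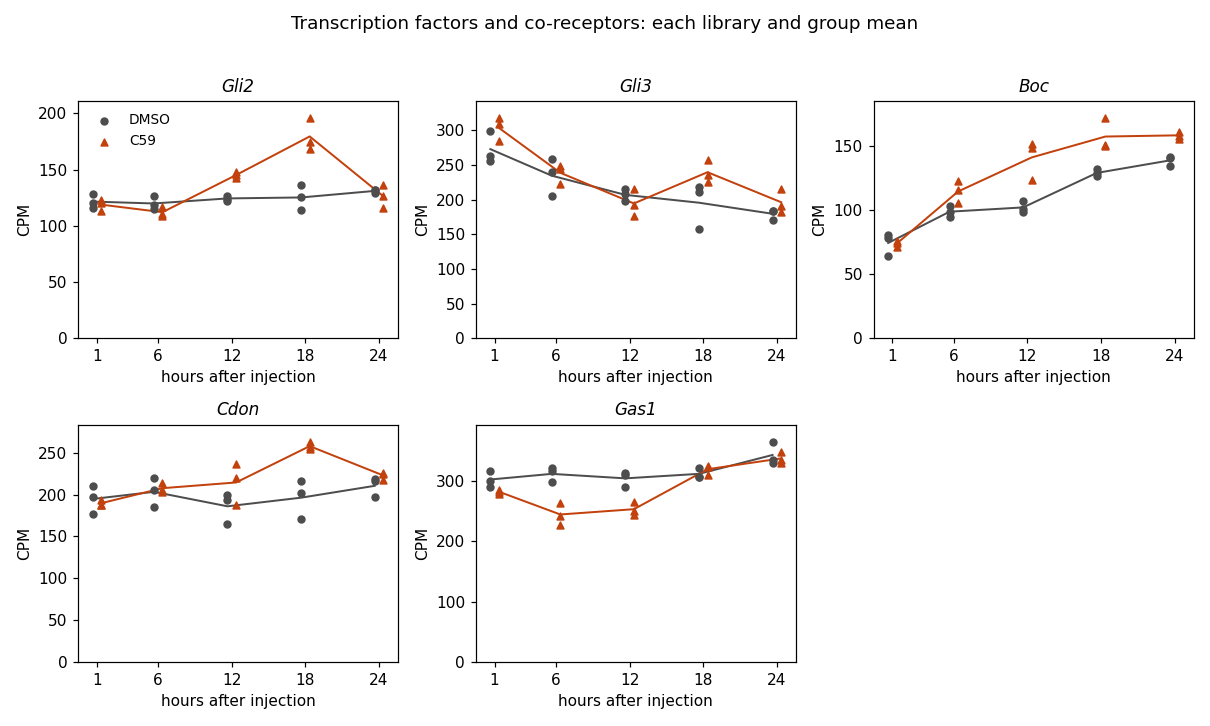
CPM of *Gli2*, *Gli3*, *Boc*, *Cdon* and *Gas1* by hours after injection; points are libraries (3 per group) and lines join group means. *Gas1* with C59 lies below DMSO at 6 and 12 h, *Gli2* and *Cdon* lie above it at 18 h, and *Boc* climbs with time under both treatments.

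Counted over the 9 genes, 0 passed at 1 h, where 2.75% of all genes tested did (1.14% higher, 1.61% lower). At an unadjusted p below 0.05 there were 3, with 17.0% of all genes, and DESeq2 also called 0. At 6 h, 6 of 9 passed against 19.6% of all genes, 4 of them higher (8.2% of all genes) and 2 lower (11.4%). With upper-quartile in place of TMM scaling the split over all genes moved from 1074 higher and 1491 lower to 1369 and 1266, and 6 of the 9 passed as before. The count at 6 h fell to 3 without C59 replicate 1, to 3 without C59 replicate 2 and to 3 when all 30 libraries shared the spread estimate. *Shh*, *Gas1* and *Ptch1* passed in each of these. Over all genes the calls fell too, from 2565 to 1562, 1830 and 1713 in the same order.

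At 12 h, 4 of 9 passed, 2 higher and 2 lower, and these 4 were the ones whose groups did not overlap (57.1% of all genes). This is close to the 47.5% of all genes that passed at that time (22.0% higher, 25.5% lower). Of all genes, 2934 were higher and 3396 lower, and with upper-quartile scaling 4088 and 2575. At 18 h, 6 of 9 passed against 7.08% of all genes, with 2 higher (3.46%) and 4 lower (3.62%), and 8 of 9 had groups that did not overlap (34.2% of all genes). This count depended on single libraries. It was 1 without DMSO replicate 3 and 7 without C59 replicate 3, the C59 library that stood apart. Leaving out C59 replicate 2, or the first or the second DMSO replicate, gave 3. *Shh* passed in all of these. Calls over all genes fell as well, from 949 of 13413 to 190 of 13618 without DMSO replicate 3. They were 286 without DMSO replicate 1, 321 without DMSO replicate 2 and 353 without C59 replicate 2. At 24 h, 3 of 9 passed against 6.44% of all genes, with 1 higher (2.88%) and 2 lower (3.56%). The count was 0 when C59 replicate 2 was left out, or DMSO replicate 1, or DMSO replicate 3, and 1 when DMSO replicate 2 was. With a log2 fold change beyond 1 required as well, 1 of 9 passed at 6 h (*Shh*, 1.17% of all genes) and 1 at 12 h (*Shh*, 4.95%). By that rule 2 passed at 18 h (*Shh* and *Hhip*, 1.29%) and 0 at 24 h (0.819%), and at 1 h 0 of 9 did (0.283%).

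**Figure D4:**
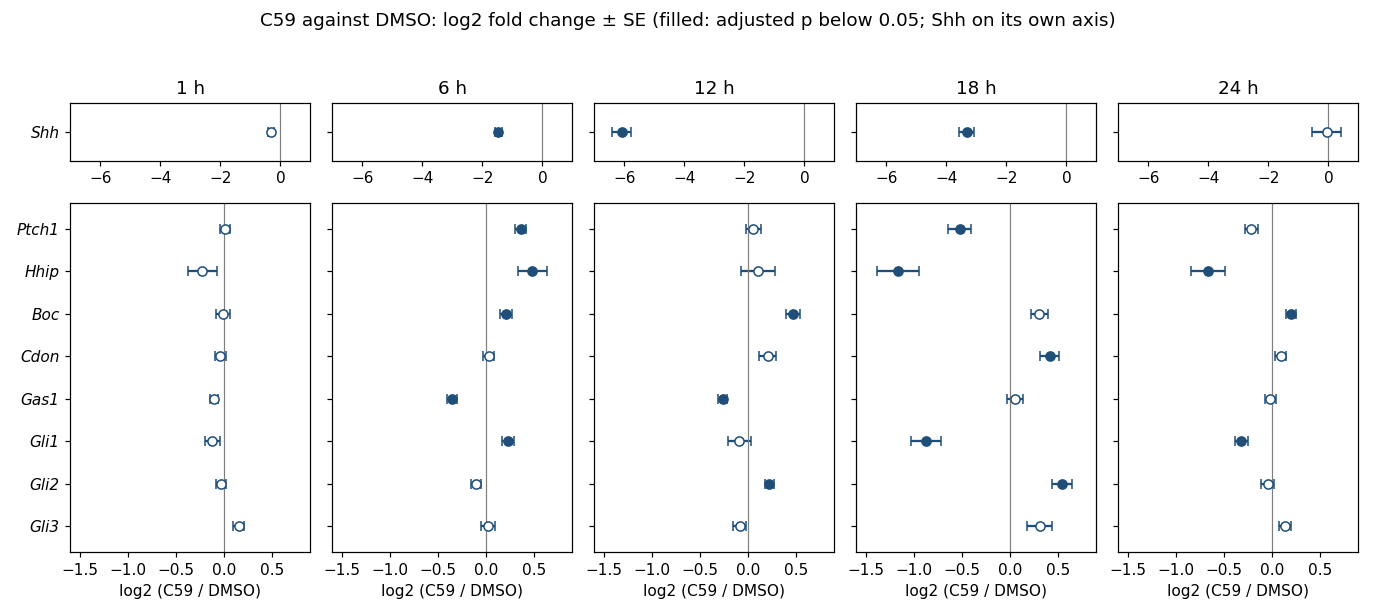
log2 fold change of C59 against DMSO (± SE) at each time; filled points passed at adjusted p below 0.05, and *Shh* has an axis of its own. *Ptch1*, *Hhip* and *Gli1* lie to the right of 0 at 6 h and to the left at 18 h.

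Whether the C59 effect changed between neighbouring times was tested as an interaction. These contrasts use the libraries of the comparisons above and share libraries with each other. From 6 to 12 h, 3 of 9 genes passed (18.1% of all genes, 6.59% higher and 11.5% lower): the effect on *Shh* became more negative by 4.62 ± 0.34 on the log2 scale (adjusted p 5e-07), that on *Ptch1* fell by 0.31 ± 0.10 (0.0467) and that on *Gli2* rose by 0.32 ± 0.06 (0.00228). Without C59 12 h replicate 3 the count was 5. The call for *Ptch1* was lost in 9 of the 12 fits that left out 1 library, and with upper-quartile factors (adjusted p 0.1004), a mean of at least 1 CPM (0.0640), all counted genes (0.0651), all 30 libraries (0.111) and both limma fits on FPKM (0.132 and 0.135). With limma on log2(FPKM + 1) the change for *Shh* was -1.22, and it passed. From 12 to 18 h, 5 of 9 passed (8.49%, with 4.94% higher and 3.55% lower), and the effect fell for all 3 response genes: by 1.26 ± 0.28 for *Hhip* (0.0141), by 0.57 ± 0.15 for *Ptch1* (0.0303) and by 0.78 ± 0.22 for *Gli1* (0.0445). Over the same interval the effect rose by 2.78 ± 0.52 for *Shh* (0.00517) and by 0.32 ± 0.09 for *Gas1* (0.0358). The count was 2 when any of the 3 DMSO libraries of 12 h, C59 12 h replicate 3 or DMSO 18 h replicate 3 was left out. It was 3 when C59 12 h replicate 1, C59 18 h replicate 2, or replicate 1 or 2 of DMSO at 18 h was. *Shh* and *Hhip* passed in each of these fits, so the lost calls were among *Ptch1*, *Gas1* and *Gli1*. With limma on log2(FPKM + 1), *Gas1* (0.0575) and *Gli1* (0.291) did not pass for this interval. From 18 to 24 h, 2 of 9 passed (6.96%, with 3.53% higher and 3.43% lower), *Shh* (3.26 ± 0.62, adjusted p 0.00743) and *Gli2* (-0.59 ± 0.12, adjusted p 0.0108), and the count was 3 without C59 18 h replicate 3. Over this interval mean *Shh* fell from 6.29 to 0.898 CPM with DMSO. With C59 it went from 0.614 to 0.841 CPM, with overlapping libraries. In the alternatives that kept every library, the change for *Shh* was 0.88 to 2.80 from 12 to 18 h. It was 1.45 to 3.28 from 18 to 24 h, and *Shh* passed in each. With a log2 change beyond 1, 1 passed in the first interval (1.89%), 2 in the second (2.09%) and 1 in the last (1.27%), and 1 (12.0%) between DMSO at 24 h and 1 h. Over all genes, upper-quartile scaling moved the split of higher and lower calls from 894 and 1564 to 1273 and 1021 for the first interval and from 676 and 486 to 534 and 633 for the second.

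Other hedgehog pathway genes were followed as a list of 35, among them other ligands, Smoothened, SUFU and release factors. None of the 31 tested passed at 1 h. At 6 h 6 of 32 passed, 3 higher and 3 lower, next to 19.6% of all genes, and at 12 h 15 of 33, 6 higher and 9 lower, next to 47.5%. *Disp1*, which releases lipid-bearing ligand from cells, was lower at 6 h (-0.37 ± 0.06, adjusted p 0.000574), as was *Scube1*, of a family that helps release the ligand (-0.35 ± 0.04 at 6 h and -0.80 ± 0.08 at 12 h). At 6 h *Stk36* (0.33 ± 0.07) was higher. *Scube2* rose at 12 h from 0.528 to 1.66 CPM. At 18 h 2 of 33 passed, 1 higher (*Scube3*, 0.54 ± 0.10) and 1 lower (7.08% of all genes), and at 24 h 3 of 33 passed, all lower (6.44%). At each of these times the count was near the share over all genes. The list's median log2 fold change stayed between -0.07 at 12 h and 0.03 at 6 h, next to 0.02 and 0.01 over all genes.

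Genes that respond to SHH in the limb, a list of 18, had 10 of 18 passed at 6 h (4 higher, 6 lower), 11 of 17 at 12 h (1 higher, 10 lower), 7 of 18 at 18 h (all lower) and 7 of 17 at 24 h (1 higher, 6 lower), where 19.6%, 47.5%, 7.08% and 6.44% of all genes passed. *Grem1*, the BMP antagonist that links SHH to the ridge FGFs, was lower at 6 h (-2.94 ± 0.07) and at 12 h (-1.92 ± 0.16). *Hoxd13* was lower at 18 h (-0.89 ± 0.11) and at 24 h (-0.52 ± 0.08). The list's median was -0.48 at 12 h and -0.20 at 18 h, next to 0.02 and 0.00 over all genes. Of 8 genes of the anterior limb bud, 6 passed at 6 h and 6 at 12 h, 5 and 6 of them lower (of all genes, 11.4% were lower at 6 h and 25.5% at 12 h), with *Irx3* at -0.86 ± 0.07 at 6 h. Of 28 genes that act upstream of *Shh* in the limb, 10 of 28 passed at 6 h (9 lower) and 17 of 27 at 12 h (13 lower), next to the same 19.6% and 47.5% of all genes. *Fgf8*, the ridge ligand, was lower at 6 h (-1.59 ± 0.08) and at 12 h (-3.17 ± 0.20), as was *Etv4*, an FGF target, at 12 h (-2.18 ± 0.08), whereas *Aldh1a2*, which makes retinoic acid, rose by 1.71 ± 0.22. At 1 h 4 of 28 genes of this list passed, 3 higher and 1 lower (*Twist1*, -0.18 ± 0.04), next to 2.75% of all genes. *Gata4* (1.89 ± 0.39) and *Gata6* (0.91 ± 0.16) were higher. *Gata4* stood at 1.99 CPM ± 1.57 (SD) with DMSO and 7.41 ± 2.82 with C59. *Gata6* stood at 8.44 ± 0.843 and 15.9 ± 3.93 CPM.

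Markers of other cell types moved with the same comparisons. Over all genes tested, 22.0% passed as higher and 25.5% as lower at 12 h. These shares were 8.2% and 11.4% at 6 h, 3.46% and 3.62% at 18 h and 1.14% and 1.61% at 1 h. At 12 h 5 of 7 ectoderm markers were higher with C59, with a summed level of 341 to 458 CPM against 254 to 277 with DMSO, and at 18 h 4 of 7, with 325 to 366 against 242 to 257 CPM. Of 5 macrophage markers 4 were higher at 12 h (41.5 to 44.5 against 25.4 to 29.9 CPM), and all 3 Schwann cell markers tested (83.5 to 109 against 35.8 to 50.5 CPM). Of 5 mesenchyme markers 4 were lower at 12 h and 1 was higher. Their sum was 1076 to 1140 CPM with C59 against 1655 to 1739 CPM with DMSO. *Twist1* was one of the 4 lower ones and is also in the upstream list. Of 5 endothelial markers 3 were higher at 12 h, and of 5 muscle markers 2 were higher and 3 lower. At 6 h 4 mesenchyme markers were already lower (1137 to 1239 against 1763 to 1790 CPM in sum), as were 4 of 6 erythroid markers (3236 to 4292 against 4260 to 4650 CPM), of which 3 had been higher at 1 h (5970 to 8425 against 4489 to 6051 CPM). At 18 h 3 of 5 muscle markers were lower (115 to 158.6 against 158.6 to 166 CPM), as were 2 of 5 mesenchyme markers (1237 to 1564 against 1542 to 1626 CPM), and 2 of 5 macrophage markers were higher (52.8 to 55.1 against 36.0 to 41.5 CPM). At 6 h 2 of 3 Schwann cell markers were higher, and of 5 muscle markers 2 were higher and 1 lower. At 24 h 3 of 5 muscle markers were lower, as were 1 mesenchyme, 1 endothelial and 1 erythroid marker. Higher at 24 h were 2 of 3 Schwann cell, 2 of 5 macrophage and 2 of 7 ectoderm markers. Of all genes, 2.88% passed as higher and 3.56% as lower at 24 h. The part of these shifts in the results for the hedgehog genes was not tested.

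The genes whose mean log2 CPM followed a member most closely were found over the 10 groups among 12541 genes, as the smallest root mean square difference after centring. For *Shh* these were *Pax3* (1.05), *Vwde* (1.06), *Fgf8* (1.07), *Rspo4* (1.16) and *Gbx2* (1.19), and no gene came close, since the profile of *Shh* itself had a root mean square of 2.09. For *Gli1* they were *Kif23* (0.106), *Gas2l3* (0.109), *Rtkn2* (0.116), *Neil3* (0.118) and *G2e3* (0.119), and *Ptch1* ranked 76 at 0.177. For *Ptch1* they were *Aspm* (0.0804), *Unc5b* (0.0889), *Cenpf* (0.107), *Usp45* (0.109) and *Pgbd1* (0.109), and *Gli1* ranked 146. For *Hhip* they were *Dlx2* (0.250), *Neil3* (0.258), *Cenpe* (0.265), *Gli1* (0.265) and *Nusap1* (0.270), and *Ptch1* ranked 11.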

How the data were processed

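PolyA RNA of 1 pair of forelimb buds per replicate was sequenced, from embryos of several litters per group per the study's methods. The authors mapped reads to mm10 and deposited raw counts per gene, and FPKM values that the authors computed with Cufflinks (run as unstranded). The submitters' processing notes name cutadapt 1.16, STAR 2.7.0e, Cufflinks 2.2.1 and deepTools 3.5.5. Total counts ranged from 18188636 to 38974885 per library.

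Protein-coding genes of chromosomes 1 to 19 (20569 genes, GENCODE M21) were tested, since the study restricted its tests in that way. Each time point was fitted with its 6 libraries in edgeR 4.0.16 (R 4.3.3): TMM factors, filterByExpr (minimum count 10, minimum total 15), quasi-likelihood F test, two-sided, Benjamini-Hochberg adjustment over all genes, passed at adjusted p below 0.05. The study's minimum log2 fold change of 1 gave a second count. Interactions used 12 libraries. The SE is the log2 fold change divided by the square root of F. CPM are counts over the effective library size of the tested genes (library size times TMM factor). This library size replaced the total of all counted genes after values had been seen, because the TMM factors belong to the tested genes. It enters no test, and CPM with the total were 95.0% to 98.1% of those given. Likeness used log2 CPM (prior count 2) of genes with 1 CPM or more on average.

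All 9 genes, *Axin2*, the 2 genes with the largest rise and the 2 with the largest fall among called genes of 4 lists (some of these are not reported here), and the 5 most alike genes of *Shh*, *Gli1*, *Ptch1* and *Hhip* were named. *Tbx5*, *Pitx1*, *Arhgap9*, *Nkx2-1* and *Twist1* at 12 h were named after their values were seen. Members and lists were chosen with earlier results of these data known. No 2 replicates of a group were copies: their chi-square divided by its degrees of freedom was 3.49 or more in each of 30 pairs (highest 46.6). Same-numbered C59 and DMSO libraries did not deviate together, so replicate numbers were not used as pairs. Alternatives were DESeq2 1.42.0, its size factors, upper-quartile factors, other filters, all counted genes, all 30 libraries, limma 3.58.1 on log2(FPKM + 1) and log2(FPKM + 0.1), a replicate block and leaving out each library. Scripts were tested on simulated data. Motifs were searched in promoters of the RefSeq table (GRCm38.p6).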

Additional observations from a re-analysis of the deposited data

Results flagged for a closer look

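The C59 effect on 6 of the 9 genes changed between neighbouring times by the interaction test of edgeR (adjusted p below 0.05), which is what marked them here. The log2 change of the effect from 6 to 12 h was -4.62 for *Shh*, -0.31 for *Ptch1* and 0.32 for *Gli2*. From 12 to 18 h it was 2.78 for *Shh*, -0.57 for *Ptch1*, -1.26 for *Hhip*, 0.32 for *Gas1* and -0.78 for *Gli1*. From 18 to 24 h it was 3.26 for *Shh* and -0.59 for *Gli2*. Over that interval mean *Shh* went from 6.29 to 0.898 CPM with DMSO and from 0.614 to 0.841 CPM with C59. The values for *Shh* at 12 h rest on 11 counts over the 3 C59 libraries. The change for *Ptch1* from 6 to 12 h did not pass in 9 of the 12 fits that left out 1 library. From 12 to 18 h, the changes for *Ptch1*, *Gas1* and *Gli1* each failed in several such fits (highest adjusted p 0.0843, 0.0990 and 0.110). Those for *Shh* and *Hhip* passed in all of them. With limma on log2(FPKM + 1) the changes for *Gas1* (0.0575) and *Gli1* (0.291) from 12 to 18 h did not pass.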

How the results depend on the processing

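Counts of the 9 genes that passed were recomputed. Requiring a log2 fold change beyond 1 left 1 gene (6 h), 1 gene (12 h), 2 genes (18 h) and 0 genes (24 h), 1 for the change from 6 to 12 h, 2 from 12 to 18 h, 1 from 18 to 24 h and 1 for DMSO at 24 h against 1 h. Sharing the spread over all 30 libraries gave 3 at 6 h, 8 at 18 h (with *Boc* and *Gli3*), 1 at 24 h, 6 from 12 to 18 h (with *Gli2*) and 3 from 18 to 24 h (with *Gli1*), and all counted genes gave 1 at 24 h. Over all genes, the shared spread moved the calls from 2565 to 1713 at 6 h. At 18 h it moved them from 949 of 13413 to 3855 of 14039. limma on FPKM gave 0 at 24 h and 3 from 12 to 18 h with both pseudocounts. The replicate block lowered the count at 18 h from 6 to 3, with 5 at 12 h, 2 at 24 h and 4 from 6 to 12 h. Over all genes, the block moved the calls from 949 to 478 at 18 h and from 6330 to 6539 at 12 h. Same-numbered libraries correlated in their deviations from -0.144 to 0.105 over 15 pairs, and 4 of 15 C59 libraries correlated best with their own number. Leaving out 1 library at a time gave counts of 0 to 1 (1 h), 3 to 5 (6 h), 4 to 6 (12 h), 1 to 7 (18 h) and 0 to 3 (24 h), 2 to 5 from 6 to 12 h, 2 to 5 from 12 to 18 h, 2 to 3 from 18 to 24 h and 4 to 7 for DMSO at 24 h against 1 h.

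Signs reversed in differences near 0 that had not passed. With limma on log2(FPKM + 1) and log2(FPKM + 0.1) these were *Ptch1* at 1 h (-0.017 and -0.018), *Boc* at 1 h (0.016 and 0.018), *Gli3* at 12 h (0.076 and 0.078), *Shh* at 24 h (0.019 and 0.0091), *Gli3* from 6 to 12 h (0.065 and 0.068) and *Gli1* for DMSO at 24 h against 1 h (-0.010 and -0.011). Leaving out 1 library gave ranges of -0.026 to 0.061 for *Ptch1*, -0.106 to 0.052 for *Boc*, -0.104 to 0.018 for *Cdon* and -0.067 to 0.0058 for *Gli2* at 1 h. They were -0.037 to 0.083 for *Cdon* and -0.065 to 0.098 for *Gli3* at 6 h, -0.016 to 0.140 for *Ptch1*, -0.052 to 0.234 for *Hhip* and -0.25 to 0.046 for *Gli1* at 12 h, and -0.69 to 0.456 for *Shh*, -0.044 to 0.028 for *Gas1* and -0.112 to 0.015 for *Gli2* at 24 h. For *Gli1* in DMSO at 24 h against 1 h the range was -0.016 to 0.106. The cause of these shifts was not tested.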
